A study of Homo sapiens with 12 samples.

Results

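Cholesterol and fatty acid synthesis was examined as a set of 31 genes in rhabdomyosarcoma (RMS) cells depleted of KDM3A, a demethylase of histone H3. The set was taken by gene symbol, from a list of the sterol regulatory pathway and of both synthesis routes, and all 31 symbols were found among the 65975 gene identifiers of the expression table. It holds 5 regulators, 7 enzymes of the mevalonate and isoprenoid steps, 10 enzymes of the squalene and sterol steps, 2 genes of sterol transport and 7 enzymes of fatty acid synthesis and desaturation. The list was chosen with earlier results of these data known. ACACA and LSS each have a further identifier that is listed at 0 in all 12 libraries and was not used.

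RNA-seq was done on 2 human cell lines, RD, a fusion-negative line (FN-RMS) grown in DMEM, and Rh30, a fusion-positive line (FP-RMS) grown in RPMI, both with fetal bovine serum. Cells of each line had been transduced with lentivirus and selected with puromycin, so that the control cells carry an integrated shRNA as well: the control was a Scrambled shRNA (Scramble), and KDM3A was depleted with a single hairpin, KDM3A-sh2. Each of the 4 groups has 3 mRNA libraries. Neither the labels nor the methods tell separate cultures from repeat libraries of 1 culture, so every p-value here measures a spread between libraries that may be technical. The sample titles number the libraries of each group from 1 to 3, but the sample descriptions of the 3 Rh30 Scramble libraries all end in the number 1, where those of the other groups end in 1, 2 and 3. The 3 Rh30 Scramble libraries correlated with each other at 0.989 (Pearson, log2 scale, across genes), beside 0.987 to 0.989 within the other groups, and the files do not tell whether they are repeats of 1 sample. Levels are given as FPKM, fragment numbers adjusted for exon length and for the size of the library, which can be compared between genes and do not hold the number of reads. By the spacing of the lowest values, the depth of the libraries ran from 0.860 to 1.202 relative to each other, with the deepest in RD Scramble and the shallowest in RD KDM3A-sh2.

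Cells build cholesterol from acetyl-CoA through mevalonate, isoprenoids, squalene and a chain of sterol intermediates, and they build fatty acids from the same acetyl-CoA. Both routes are transcribed under the sterol regulatory element-binding proteins (SREBPs), precursors encoded by SREBF1 and SREBF2 that are held in the endoplasmic reticulum: the escort protein SCAP carries them to the Golgi for cleavage when sterols are scarce, and INSIG1 and INSIG2 hold the complex back when sterols are plentiful. SREBP-2 is best known for the sterol enzymes and SREBP-1 for the fatty acid enzymes, and proliferating tumor cells draw on both routes for membranes. Cleavage of the precursors is not seen in RNA levels.

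KDM3A itself was lower with KDM3A-sh2 in both lines. In RD, it was at 35.8, 33.9 and 30.9 FPKM with Scramble and at 12.0, 11.2 and 13.4 FPKM with KDM3A-sh2. In Rh30, it was at 27.8, 29.2 and 32.0 FPKM with Scramble and at 13.7, 13.2 and 15.4 FPKM with KDM3A-sh2. The groups did not overlap in either line, and on the log2(FPKM + 1) scale used for all changes below KDM3A fell by 1.39 ± 0.08 (SE, limma adjusted p 5e-05) in RD and by 1.02 ± 0.08 in Rh30 (adjusted p 0.000348). The drop was smaller in Rh30 by 0.37 ± 0.12 (adjusted p 0.0388).

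Most enzymes of both routes were expressed at lower levels upon KDM3A knockdown, in RD and in Rh30. In RD, 18 of the 31 genes fell and 4 rose at a limma adjusted p under 0.05, beside 19.5% of all 17988 genes tested that fell and 21.6% that rose (41.1% in either direction). In Rh30, where ABCA1 was too low to be tested, 17 of 30 fell, beside 13.2% of the 17803 genes tested that fell and 15.3% that rose (28.5% in either direction). None of the 30 rose in Rh30 at that threshold, though MVK, PMVK and TM7SF2 were higher at an unadjusted limma p under 0.05, and a test of each gene on its own spread, on FPKM or on the log scale, called none higher either. A single fit over all 12 libraries called 20 genes of the set lower in Rh30 and 2 higher, PMVK and TM7SF2 (adjusted p 0.0198 and 0.0385). Of all genes it called 2710 lower and 3213 higher. Limma without a filter on low values called 16 of the set lower and 1 higher, ABCA1 (adjusted p 0.0384), whose Rh30 levels are too low for anything to be read from that call. Of all genes that setting called 1963 lower and 2131 higher. The median change was -0.22 in RD and -0.28 in Rh30, beside medians over all genes tested of 0.01 and 0.03. The balance of all genes called at that threshold depended on scaling. On the TPM scale, where all libraries have equal sums, 2999 fell and 4260 rose in RD, and 2603 fell and 2314 rose in Rh30. Of the genes of the set, 17 fell and 4 rose in RD on that scale, and 18 fell and 0 rose in Rh30.

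The comparisons in RD and Rh30 share no library, but both set the same single hairpin against the same Scramble control. Loss of KDM3A and any other effect of this hairpin cannot be told apart in either line. In all, 14 of the genes fell in both lines: ACAT2, HMGCS1, IDI1, FDPS, FDFT1, SQLE, LSS, NSDHL, INSIG1, ACLY, SCD, ELOVL6, FADS1 and FADS2. That is 14 of the 30 genes tested in both lines, beside 6.84% of the 15970 genes of the table tested in both. As the set was chosen with earlier results of these data known, the shares are a description and not a test of the set. All 3 libraries with KDM3A-sh2 lay below all 3 with Scramble for 20 of the 31 genes in RD (25.3% of all genes tested) and for 22 in Rh30 (20.2%), and above them for 5 genes in each line (28.1% and 25.6%), in Rh30 with the untested ABCA1 among them. Of the whole table, the number of genes called in Rh30, 5066, came to 3215 without Rh30 KDM3A-sh2 replicate 1, while the number of these 30 genes called was 15 to 18 when any 1 library was left out. The plot of the 31 genes by library shows each of them against the Scramble mean.

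**Figure D1:**
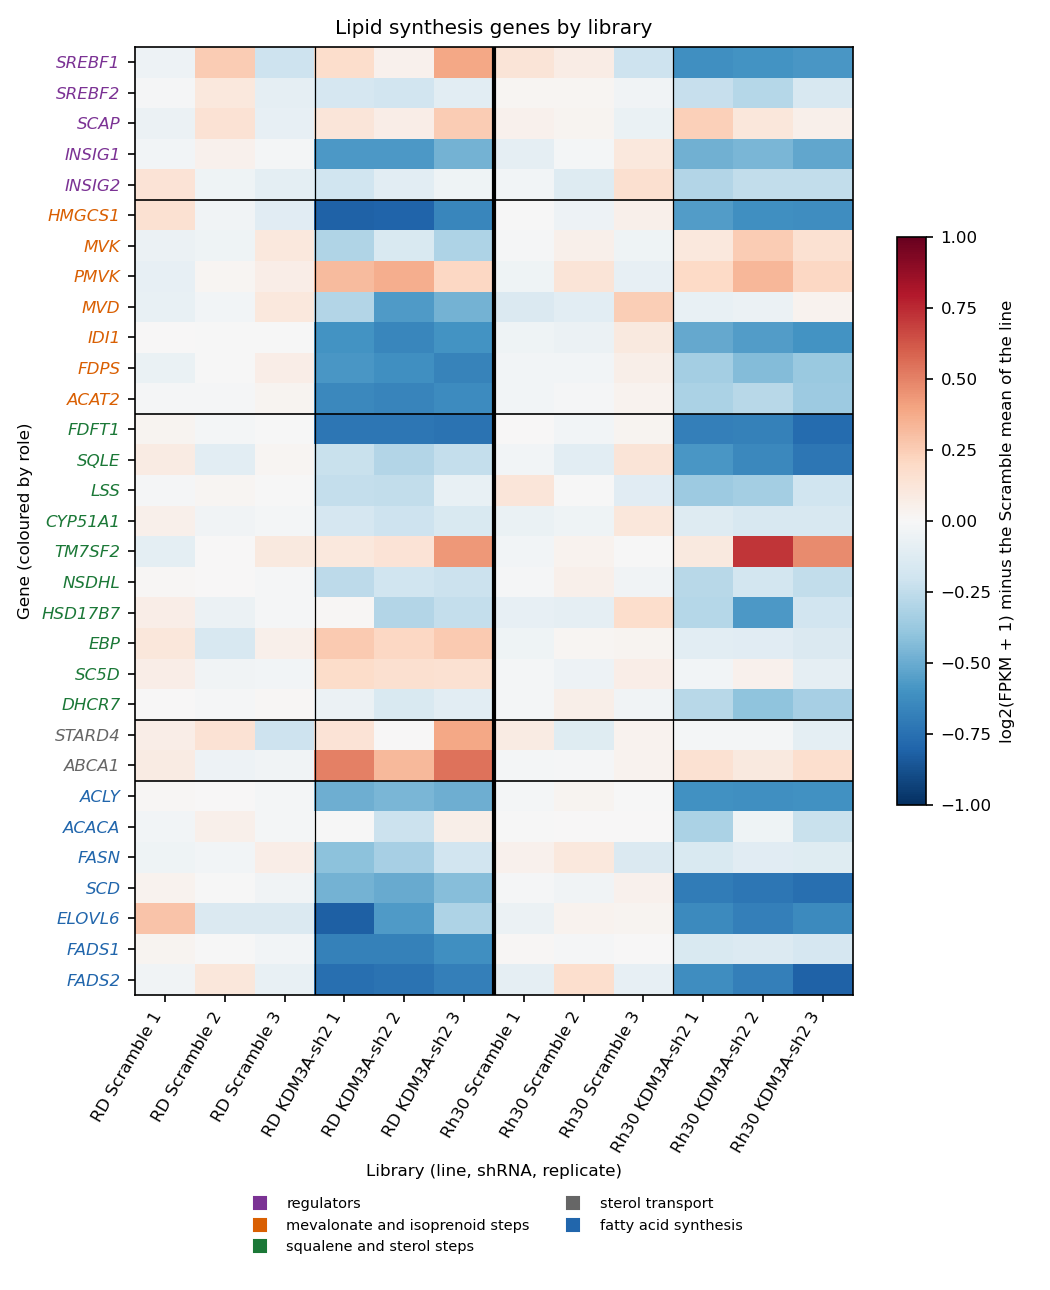
Difference of log2(FPKM + 1) from the Scramble mean of the same line (color) for 31 genes (rows, colored by role) in 12 libraries (columns). HMGCS1, IDI1, FDFT1, INSIG1, ACLY, SCD and FADS2 are blue in every KDM3A-sh2 library of both lines, and SREBF1 is blue in the 3 Rh30 KDM3A-sh2 libraries and not in those of RD.

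Summed over the 17 enzymes from ACAT2 to DHCR7, the levels were 1657, 1626 and 1674 FPKM in RD Scramble and 1271, 1240.2 and 1257 FPKM in RD KDM3A-sh2. In Rh30 the sums were 1193, 1190.1 and 1245 FPKM with Scramble and 929.7, 918 and 907 FPKM with KDM3A-sh2. The 7 fatty acid enzymes summed to 899, 892 and 893 FPKM in RD Scramble and to 645, 654 and 701 FPKM in RD KDM3A-sh2. In Rh30 they summed to 988, 1007 and 969 FPKM with Scramble and to 735, 749 and 735 FPKM with KDM3A-sh2. Both sums were lower in every KDM3A-sh2 library than in every Scramble library of the same line. These sums are led by a few abundant genes, FDFT1, FDPS, FASN, ACLY and SCD, which were the 5 highest of the 31 in both lines with Scramble. In bulk RNA, fewer cells that express a gene and less of its RNA per cell cannot be told apart.

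Genes of the cell cycle moved with the knockdown in RD. In all, 6 markers of cycling cells (MKI67, TOP2A, CCNB1, CDK1, MCM2 and PCNA, the last being the most abundant) summed to 797, 779 and 795 FPKM in RD Scramble and to 415, 439.8 and 413 FPKM in RD KDM3A-sh2, and 6 of the 6 fell. In Rh30 the same markers summed to 1460.1, 1421 and 1535 FPKM with Scramble and to 1399.9, 1427 and 1359 FPKM with KDM3A-sh2, where TOP2A fell and the other 5 were not called. Their part in the changes of the synthesis genes was not tested. Markers of the muscle lineage (MYOD1, MYOG, DES, CHRNA1, CDH15 and MYF5), which RMS cells are known for, summed to 2123, 2343 and 2318 FPKM in RD Scramble and to 2704, 2629 and 2751 FPKM in RD KDM3A-sh2, with CHRNA1 the most abundant on average over the 12 libraries and MYF5 under 1 FPKM in each. In Rh30 they summed to 2640.3, 2724 and 2453 FPKM with Scramble and to 2861, 2829.5 and 2858 FPKM with KDM3A-sh2. Every KDM3A-sh2 sum was above every Scramble sum of its line, while single genes went both ways: 3 fell and 2 rose in RD, and 2 fell and 2 rose in Rh30, among them CHRNA1 (0.42 in RD and -0.64 in Rh30) and MYOG (-0.14 and 0.56), and their part in the changes of the synthesis genes was not tested either. A list of 7 genes known from fusion-positive tumors, led by FGFR4, summed to 134, 136 and 146 FPKM in RD Scramble and to 815, 804 and 703 FPKM in Rh30 Scramble. With KDM3A-sh2 they summed to 106.5, 105.6 and 105.2 FPKM in RD, below every Scramble library, where FGFR4 (-0.36) and PAX3 (-0.91) fell, PIPOX and FOXO1 were not called and the other 3 were too low to test. In Rh30 KDM3A-sh2 the sums were 786, 744 and 803 FPKM, within the Scramble range, where FGFR4 fell (-0.24) and PIPOX, NOS1 and PAX3 rose (0.39, 0.26 and 0.47). The part of these genes in the result was not tested. Markers of adipocytes and hepatocytes, cells rich in these routes, were under 1 FPKM in every library for 6 of 6 genes, as were 4 of 5 leukocyte markers and 3 of 5 endothelial markers, with TEK the most abundant of the latter. The 5 epithelial markers summed to 56.4, 56.2 and 62.0 FPKM in RD Scramble and to 54.1, 53.6 and 54.8 FPKM in RD KDM3A-sh2, where CLDN4 fell (-0.31). In Rh30 they summed to 12.6, 12.7 and 12.3 FPKM with Scramble and to 11.4, 13.5 and 12.8 FPKM with KDM3A-sh2, where KRT18 fell (-0.33). KRT18, the most abundant, was at 43.7 ± 3.10 FPKM in RD Scramble (SD, n = 3) and 4.66 ± 0.323 FPKM in Rh30 Scramble, CLDN4 at 10.9 and 0.703 FPKM, KRT8 at 2.92 and 2.52 FPKM and EPCAM, in the other direction, at 0.577 and 4.63 FPKM, while CDH1 was under 1 FPKM in every library.

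Among the 5 regulators, INSIG1 fell in both lines, and SREBF1 and SREBF2 fell in Rh30. INSIG1 (chromosome 7, 155297776 to 155310235, GRCh38), which retains the SREBP precursors and is itself a known SREBP target, was at 33.6, 35.2 and 33.8 FPKM in RD Scramble and at 22.6, 22.7 and 24.3 FPKM in RD KDM3A-sh2. Among Rh30 libraries it was at 28.8, 30.3 and 33.1 FPKM with Scramble and at 21.7, 22.1 and 21.1 FPKM with KDM3A-sh2. No KDM3A-sh2 library reached the lowest Scramble library of its line, and the change was -0.54 ± 0.05 (SE, limma adjusted p 0.000269) in RD and -0.49 ± 0.06 (adjusted p 0.00226) in Rh30. Its close relative INSIG2, which does the same task without being a strong SREBP target, was at 22.1, 19.4 and 18.7 FPKM in RD Scramble and 17.3, 18.5 and 19.4 FPKM in RD KDM3A-sh2, where the groups overlapped (-0.12 ± 0.08, adjusted p 0.274, and -0.16 to -0.0477 with 1 library left out). In Rh30 INSIG2 was at 15.4, 14.3 and 17.7 FPKM with Scramble and 12.6, 13.1 and 13.1 FPKM with KDM3A-sh2, which did not overlap, with a change of -0.26 ± 0.08 that missed the threshold (adjusted p 0.0555) and passed it without Rh30 Scramble replicate 2 (-0.33, adjusted p 0.0367).

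SREBF1 (chromosome 17, 17810399 to 17837002, minus strand) had, of the 31 genes, the knockdown change that differed most between the lines on the log2(FPKM + 1) scale. In RD, it was at 24.7, 30.8 and 22.1 FPKM with Scramble and at 29.1, 26.5 and 33.9 FPKM with KDM3A-sh2. In Rh30, it was at 106, 102 and 84.0 FPKM with Scramble and at 63.1, 63.8 and 64.5 FPKM with KDM3A-sh2. The groups overlapped in RD (0.20 ± 0.13, limma adjusted p 0.273, and 0.0995 to 0.33 with 1 library left out), while in Rh30 the 3 KDM3A-sh2 libraries lay close together below every Scramble library (-0.60 ± 0.09, adjusted p 0.00367). The difference of the changes, Rh30 minus RD, was -0.80 ± 0.18 (adjusted p 0.00645). SREBF1 shares 556 exon bases with RAI1 on the opposite strand (mean 50.6 FPKM), and the strand setting of the counting is not given in the sources used here. SREBF2 (chromosome 22, 41833079 to 41907308) was at 69.7, 75.5 and 65.7 FPKM in RD Scramble and 62.4, 61.2 and 65.2 FPKM in RD KDM3A-sh2. The Rh30 values were 116, 116 and 112 FPKM with Scramble and 97.8, 94.1 and 102 FPKM with KDM3A-sh2. The groups did not overlap in either line, and SREBF2 was called lower in Rh30 (-0.22 ± 0.04, adjusted p 0.0102) and not in RD (-0.16 ± 0.06, adjusted p 0.07, called without RD Scramble replicate 3 (-0.20, adjusted p 0.0345)), with no difference called between the lines (-0.07 ± 0.07, 95% interval -0.23 to 0.09). SCAP was not called in RD (0.15 ± 0.08, and 0.0947 to 0.22 with 1 library left out) or in Rh30 (0.13 ± 0.06, and 0.0795 to 0.18). The plots of single genes show these levels beside those of 8 enzymes.

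**Figure D2:**
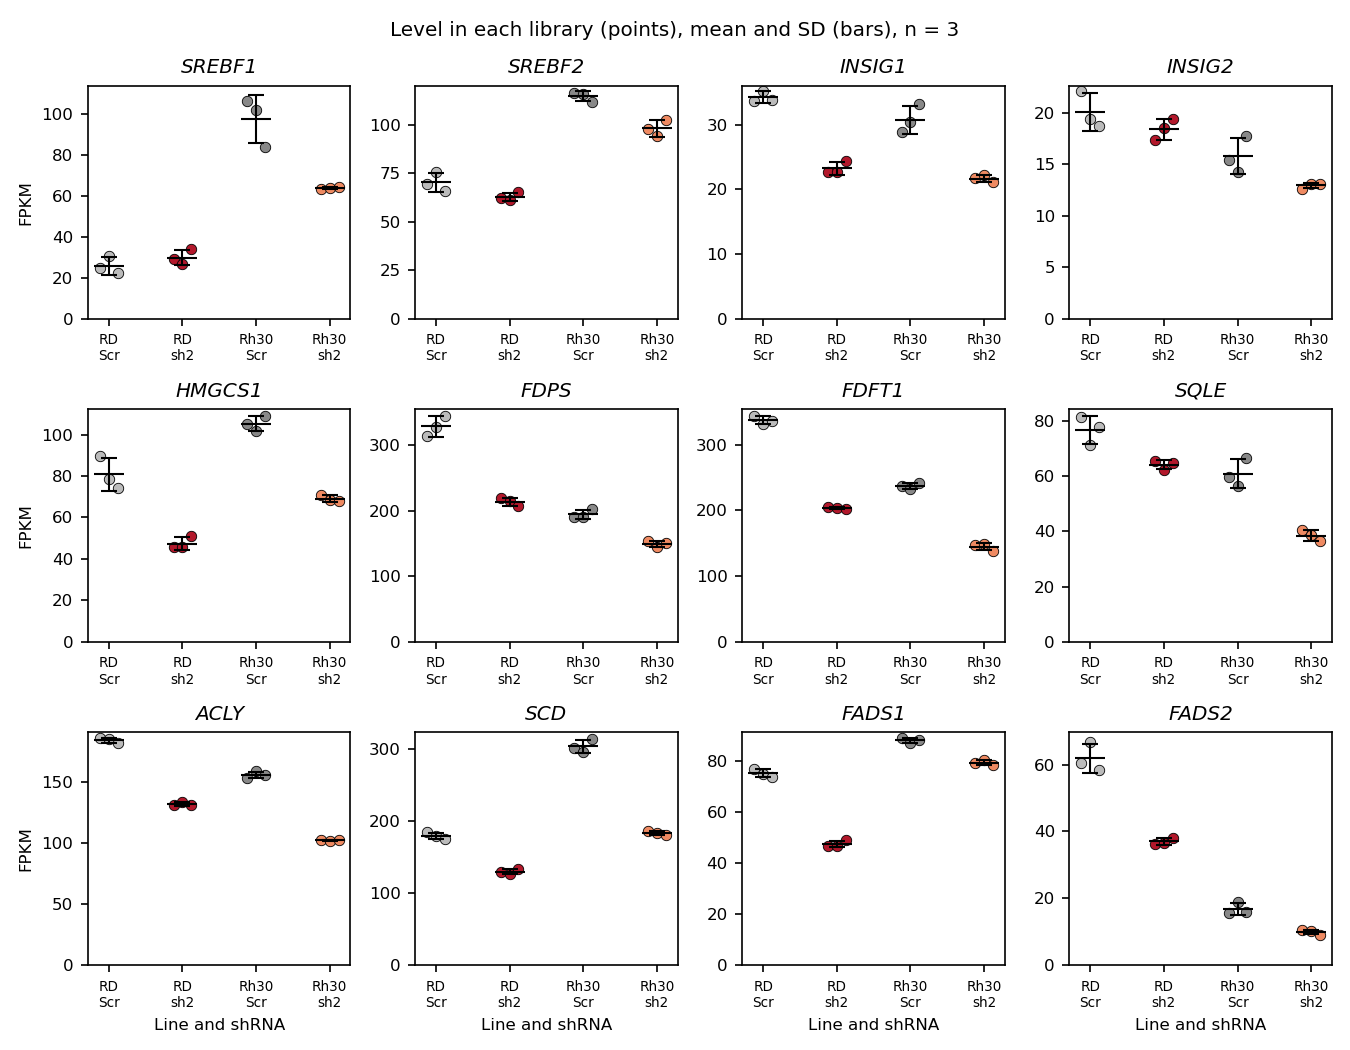
FPKM in each library (points) with the mean and SD (bars, n = 3) for 12 genes in RD Scramble (RD Scr), RD KDM3A-sh2 (RD sh2), Rh30 Scramble (Rh30 Scr) and Rh30 KDM3A-sh2 (Rh30 sh2). The groups of INSIG1, HMGCS1, FDPS, FDFT1, SQLE, ACLY, SCD, FADS1 and FADS2 are apart in both lines, while those of SREBF1 and INSIG2 overlap in RD.

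In the mevalonate and isoprenoid steps, 6 of the 7 enzymes fell in RD and PMVK rose, and 4 of the 7 fell in Rh30, with median changes of -0.62 and -0.32. Over all genes tested, 19.5% fell and 21.6% rose in RD, and 13.2% fell in Rh30. ACAT2, the cytosolic thiolase that makes acetoacetyl-CoA, was at 139.7, 139.8 and 144 FPKM in RD Scramble and 90.1, 88.8 and 91.0 FPKM in RD KDM3A-sh2. The values in Rh30 were 135, 137 and 142 FPKM with Scramble and 111, 113 and 107 FPKM with KDM3A-sh2. ACAT2 fell by 0.64 ± 0.03 in RD (limma adjusted p 2.78e-05) and in Rh30 by 0.32 ± 0.04 (adjusted p 0.00179), a difference of 0.32 ± 0.05 (adjusted p 0.000427). Its exons share 397 bases with those of TCP1 on the opposite strand (mean 507 FPKM), 1141 with SOD2 and 1458 with SOD2-OT1, also on the opposite strand.

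HMGCS1 (chromosome 5, 43289395 to 43313512, minus strand), which condenses acetyl-CoA with acetoacetyl-CoA, had the lowest RD change of the 31 genes. In RD, HMGCS1 was at 89.5, 78.4 and 74.4 FPKM with Scramble and 45.6, 45.8 and 50.8 FPKM with KDM3A-sh2. In Rh30, HMGCS1 was at 105, 102 and 109 FPKM with Scramble and 70.9, 68.6 and 67.9 FPKM with KDM3A-sh2. The groups were far apart in both lines, with changes of -0.75 ± 0.08 (limma adjusted p 0.000437) and -0.60 ± 0.04 (adjusted p 0.000246). IDI1, the isomerase of isopentenyl diphosphate, was at 77.1, 76.8 and 76.6 FPKM in RD Scramble and 50.6, 48.5 and 50.4 FPKM in RD KDM3A-sh2. In Rh30 IDI1 was at 74.6, 73.6 and 82.4 FPKM with Scramble and 53.5, 51.8 and 50.5 FPKM with KDM3A-sh2. It fell by 0.62 ± 0.04 in RD (adjusted p 4.82e-05) and in Rh30 by 0.56 ± 0.05 (adjusted p 0.000808), and the 2 changes differed by 0.06 ± 0.06 (95% interval -0.08 to 0.20).

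FDPS (chromosome 1, 155308748 to 155320666) makes farnesyl diphosphate, where the sterol, dolichol, ubiquinone and prenylation branches part. In RD, FDPS was at 314, 329 and 345 FPKM with Scramble and 219.6, 215 and 207 FPKM with KDM3A-sh2. In Rh30, FDPS was at 191, 191 and 203 FPKM with Scramble and 153, 144 and 150.3 FPKM with KDM3A-sh2. FDPS fell in both lines without overlap, and fell more in RD (-0.62 ± 0.04, limma adjusted p 0.000101) than in Rh30 (-0.38 ± 0.04, adjusted p 0.0012, difference 0.24 ± 0.06 at adjusted p 0.0141). Its pseudogene FDPSP1 is listed at 8.20% of the mean FPKM of FDPS, so reads may be shared between them.

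The 3 enzymes between mevalonate and isopentenyl diphosphate did not move together. MVK, which phosphorylates mevalonate first, fell in RD (-0.25 ± 0.07, limma adjusted p 0.026) and was at 0.17 ± 0.06 in Rh30 (adjusted p 0.0801), and the difference between the lines was called (0.42 ± 0.09, adjusted p 0.00602). The RD call of MVK held under 9 of the 17 alternative settings and was lost without RD KDM3A-sh2 replicate 1 (-0.23, adjusted p 0.0801), RD KDM3A-sh2 replicate 3 (-0.23, adjusted p 0.0754), RD Scramble replicate 2 (-0.27, adjusted p 0.0523) and RD Scramble replicate 3 (-0.20, adjusted p 0.0726). MVK shares 306 exon bases with MMAB on the opposite strand (mean 23.9 FPKM). MVD, which decarboxylates the diphosphate, fell in RD (-0.45 ± 0.08, adjusted p 0.00461) and was at -0.03 ± 0.11 in Rh30 (adjusted p 0.845). That difference missed the threshold (0.41 ± 0.15, adjusted p 0.0569) and passed it without RD KDM3A-sh2 replicate 1 (0.49, adjusted p 0.0359) and Rh30 Scramble replicate 3 (0.54, adjusted p 0.00544). PMVK, the kinase between them, rose in RD (0.29 ± 0.06, adjusted p 0.00728) and was at 0.25 ± 0.08 in Rh30 (adjusted p 0.0551, called without Rh30 Scramble replicate 2 (0.31, adjusted p 0.033)).

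In the squalene and sterol steps, 5 of the 10 enzymes fell in each line, with 2 that rose in RD, and the median changes were -0.17 in RD and -0.27 in Rh30. Over all genes tested, 19.5% fell and 21.6% rose in RD, so the 2 of 10 that rose are near that share. In Rh30, 13.2% of all genes tested fell. FDFT1, squalene synthase, the first enzyme committed to sterols, was the most abundant of the 31 genes in RD Scramble. In RD, FDFT1 was at 343, 332 and 336 FPKM with Scramble and 204, 204 and 202 FPKM with KDM3A-sh2. In Rh30, FDFT1 was at 238, 233 and 241 FPKM with Scramble and 148, 148 and 139 FPKM with KDM3A-sh2. The libraries of a group differed little against the gap between groups, and the changes were -0.73 ± 0.03 (SE, limma adjusted p 1.46e-05) and -0.71 ± 0.04 (adjusted p 0.00012). The 2 changes differed by 0.02 ± 0.04, with a 95% interval of -0.08 to 0.11.

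SQLE, squalene epoxidase, which makes the oxidized precursor of all sterols, fell more in Rh30 than in RD. In RD, SQLE was at 81.4, 71.1 and 77.9 FPKM with Scramble and 65.7, 62.3 and 64.7 FPKM with KDM3A-sh2. In Rh30, SQLE was at 59.7, 56.6 and 66.6 FPKM with Scramble and 40.4, 38.6 and 36.4 FPKM with KDM3A-sh2. The changes were -0.25 ± 0.06 in RD (limma adjusted p 0.0111) and -0.65 ± 0.07 in Rh30 (adjusted p 0.00129), and their difference was -0.40 ± 0.09 (adjusted p 0.01). On unlogged FPKM, where SQLE is lower in Rh30 to begin with, a test of each gene on its own spread did not call that difference (-9.92 FPKM, adjusted p 0.137).

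Of the enzymes that follow squalene, LSS, which closes the sterol rings, fell in RD (-0.19 ± 0.05, limma adjusted p 0.0275) and in Rh30 (-0.30 ± 0.07, adjusted p 0.0236), though these calls held under only 7 of the 17 and 9 of the 17 alternative settings. In RD the LSS call was lost without RD KDM3A-sh2 replicate 1 (-0.16, adjusted p 0.0856), RD KDM3A-sh2 replicate 2 (-0.16, adjusted p 0.0863), RD Scramble replicate 1 (-0.19, adjusted p 0.0582), RD Scramble replicate 2 (-0.18, adjusted p 0.081) and RD Scramble replicate 3 (-0.19, adjusted p 0.067). In Rh30 it was lost without Rh30 KDM3A-sh2 replicate 1 (-0.27, adjusted p 0.0779), Rh30 KDM3A-sh2 replicate 2 (-0.28, adjusted p 0.0734), Rh30 Scramble replicate 1 (-0.24, adjusted p 0.0633) and Rh30 Scramble replicate 2 (-0.30, adjusted p 0.0612). NSDHL, a dehydrogenase of sterol demethylation, fell in both lines (-0.22 ± 0.04, adjusted p 0.00479, and -0.24 ± 0.05, adjusted p 0.0149), in Rh30 not without Rh30 KDM3A-sh2 replicate 1 (-0.21, adjusted p 0.057). CYP51A1, the lanosterol demethylase, fell in RD (-0.18 ± 0.04, adjusted p 0.0122) and was at -0.15 ± 0.06 in Rh30 (adjusted p 0.0897). Its pseudogene CYP51A1P2 is listed at 19.4% of the FPKM of CYP51A1, and AC000120.2, on the same strand, shares 2844 of its exon bases. DHCR7, the last reductase, fell in Rh30 (-0.34 ± 0.05, adjusted p 0.00382) and was at -0.11 ± 0.04 in RD (adjusted p 0.0507, called without RD KDM3A-sh2 replicate 1 (-0.13, adjusted p 0.0453)), with a called difference between lines of -0.23 ± 0.06 (adjusted p 0.0144).

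The late isomerase EBP and the desaturase SC5D went the other way in RD. EBP rose there (0.24 ± 0.07, limma adjusted p 0.0343) and was at -0.12 ± 0.04 in Rh30 (adjusted p 0.0503), with a called difference of -0.36 ± 0.08 (adjusted p 0.00866). The RD call of EBP held under 9 of the 17 alternative settings and was lost without RD KDM3A-sh2 replicate 1 (0.24, adjusted p 0.088), RD KDM3A-sh2 replicate 2 (0.26, adjusted p 0.0655), RD KDM3A-sh2 replicate 3 (0.23, adjusted p 0.087) and RD Scramble replicate 3 (0.27, adjusted p 0.0538). SC5D rose in RD (0.17 ± 0.04, adjusted p 0.0172, lost without RD KDM3A-sh2 replicate 1 (0.16, adjusted p 0.0573), RD Scramble replicate 2 (0.15, adjusted p 0.0609) and RD Scramble replicate 3 (0.15, adjusted p 0.0542)) and was at -0.03 ± 0.06 in Rh30. The difference between the lines for SC5D (-0.19 ± 0.07, adjusted p 0.055) was called without RD Scramble replicate 1 (-0.23, adjusted p 0.0346), Rh30 KDM3A-sh2 replicate 2 (-0.23, adjusted p 0.0335) and Rh30 Scramble replicate 2 (-0.22, adjusted p 0.0465). The reductase TM7SF2 was at 0.22 ± 0.10 in RD (0.12 to 0.29 with 1 library left out) and 0.43 ± 0.17 in Rh30, the latter from a low level of 2.03 ± 0.0618 FPKM (SD, n = 3), and was called in neither (in Rh30 it was called without Rh30 KDM3A-sh2 replicate 1 (0.59, adjusted p 0.0351)). HSD17B7, a keto-sterol reductase, was at -0.17 ± 0.09 in RD (called without RD KDM3A-sh2 replicate 1 (-0.27, adjusted p 0.0361)) and -0.35 ± 0.12 in Rh30, and it has 2 pseudogenes listed at 8.91% and 9.62% of its level.

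Of the 2 sterol transport genes, ABCA1, the exporter of cholesterol to lipoproteins, rose in RD from 3.60, 3.20 and 3.24 to 5.16, 4.45 and 5.31 FPKM (0.46 ± 0.10, limma adjusted p 0.00992). In Rh30 ABCA1 was listed at 0, 0.00466 and 0.0365 FPKM with Scramble and at 0.127, 0.0853 and 0.137 FPKM with KDM3A-sh2, under the limit for testing. Without that limit limma called it higher there (0.14, adjusted p 0.0384). A single fit over all 12 libraries, where ABCA1 passed the limit only through RD, gave an adjusted p of 0.29. Nothing is read from either value, as the Rh30 levels are near 0. STARD4, a cytosolic sterol carrier, was called in neither line (0.18 ± 0.13 in RD and -0.05 ± 0.06 in Rh30), and with 1 library left out its values ran from 0.0715 to 0.26 and from -0.10 to -0.0059.

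In fatty acid synthesis, 6 of the 7 enzymes fell in RD and 5 of the 7 in Rh30, beside 19.5% and 13.2% of all genes tested. The median changes were -0.48 and -0.61. ACLY, which splits citrate into the acetyl-CoA that feeds both routes, was at 186, 185 and 182 FPKM in RD Scramble and 131, 134 and 131 FPKM in RD KDM3A-sh2. In Rh30 ACLY was at 153, 159 and 156 FPKM with Scramble and 102, 102 and 102 FPKM with KDM3A-sh2. ACLY fell by 0.48 ± 0.03 in RD (limma adjusted p 5.99e-05) and in Rh30 by 0.61 ± 0.03 (adjusted p 0.000103). The difference, -0.13 ± 0.04 (adjusted p 0.0219), was lost without RD KDM3A-sh2 replicate 2 (-0.12, adjusted p 0.0524) and RD Scramble replicate 3 (-0.12, adjusted p 0.0517). FASN, which builds the chain to palmitate, fell in RD (-0.31 ± 0.06, adjusted p 0.00686) and was at -0.13 ± 0.06 in Rh30 (adjusted p 0.183, called without Rh30 Scramble replicate 3 (-0.20, adjusted p 0.014)), with a difference of 0.18 ± 0.10 that was not called, and ACACA, which supplies FASN with malonyl-CoA, was called in neither line (-0.05 ± 0.07 in RD, -0.19 ± 0.07 in Rh30). Without 1 library, RD KDM3A-sh2 replicate 2, the RD value of ACACA turned to 0.03, and without Rh30 KDM3A-sh2 replicate 2 (-0.27, adjusted p 0.0184) it was called in Rh30.

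SCD, the desaturase that makes oleate, was at 184, 179 and 175 FPKM in RD Scramble and 129, 126 and 133 FPKM in RD KDM3A-sh2. In Rh30 SCD was at 301, 295 and 313 FPKM with Scramble and 186, 183 and 179.7 FPKM with KDM3A-sh2, so that the 3 Rh30 KDM3A-sh2 libraries came close to those of RD Scramble. It fell more in Rh30 (-0.73 ± 0.03, limma adjusted p 8.21e-05) than in RD (-0.47 ± 0.04, adjusted p 0.00013, difference -0.26 ± 0.05 at adjusted p 0.00214). The pseudogene SCDP1 is listed at 8.43% of its level. ELOVL6, which lengthens palmitate to stearate, was at 48.3, 35.6 and 35.6 FPKM in RD Scramble and 21.9, 26.3 and 31.6 FPKM in RD KDM3A-sh2. In Rh30 ELOVL6 was at 64.8, 69.3 and 68.7 FPKM with Scramble and 43.0, 41.8 and 43.0 FPKM with KDM3A-sh2. The Rh30 libraries were tight (-0.65 ± 0.04, adjusted p 0.000212), while in RD the groups lay apart by a small gap and spread widely (-0.56 ± 0.16, adjusted p 0.0295). The RD call of ELOVL6 held under 10 of the 17 alternative settings and was lost without RD KDM3A-sh2 replicate 1 (-0.44, adjusted p 0.0773), RD KDM3A-sh2 replicate 2 (-0.56, adjusted p 0.0728) and RD Scramble replicate 1 (-0.42, adjusted p 0.0707).

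FADS1 and FADS2, the desaturases of polyunsaturated fatty acids, are neighbors on chromosome 11 (61799625 to 61829318, minus strand, and 61792980 to 61867354, plus strand) and share 490 exon bases on opposite strands. In RD, FADS1 was at 76.6, 74.9 and 73.7 FPKM with Scramble and 46.7, 46.7 and 48.8 FPKM with KDM3A-sh2. In Rh30, FADS1 was at 88.8, 87.0 and 88.1 FPKM with Scramble and 79.0, 80.1 and 78.3 FPKM with KDM3A-sh2. FADS1 fell in both lines, by more in RD (-0.65 ± 0.04, limma adjusted p 4.87e-05) than in Rh30 (-0.15 ± 0.03, adjusted p 0.0169), and the difference of 0.50 ± 0.04 had the lowest adjusted p of the 31 genes (1.64e-05). The small Rh30 drop was not called without Rh30 KDM3A-sh2 replicate 1 (-0.15, adjusted p 0.062), Rh30 KDM3A-sh2 replicate 3 (-0.14, adjusted p 0.0524) and Rh30 Scramble replicate 1 (-0.14, adjusted p 0.0594). In RD, FADS2 was at 60.4, 66.7 and 58.5 FPKM with Scramble and 36.3, 36.6 and 38.0 FPKM with KDM3A-sh2. In Rh30, FADS2 was at 15.7, 19.0 and 15.8 FPKM with Scramble and 10.5, 10.1 and 9.11 FPKM with KDM3A-sh2. The level of FADS2 was far lower in Rh30 in every library, and FADS2 fell by 0.73 ± 0.06 in RD (adjusted p 0.000146) and in Rh30 by 0.71 ± 0.09 (adjusted p 0.00257), a difference of 0.02 ± 0.11 with a 95% interval of -0.23 to 0.27.

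Whether the knockdown change differed between Rh30 and RD was tested over all 12 libraries, and it did for 10 of the 31 genes, 32.3%, beside 27.8% of all 18517 genes tested (13.4% lower in Rh30 and 14.4% higher). The line, its growth medium and the smaller drop of KDM3A in Rh30 (by 0.37 ± 0.12, limma adjusted p 0.0388) cannot be told apart in these differences. The change of SREBF1, SQLE, EBP, SCD, DHCR7 and ACLY was lower in Rh30, and that of FADS1, MVK, ACAT2 and FDPS was lower in RD. On unlogged FPKM, where equal folds from unequal levels differ, a test of each gene on its own spread called 13 of the genes. Of all genes it called 5676, beside 5151 in the limma fit. It did not call SQLE, DHCR7 or ACLY. It did call FDFT1 (41.0 FPKM, adjusted p 0.000751) and FADS2 (18.0 FPKM, adjusted p 0.00194), whose drops in FPKM were larger in RD, where their levels were higher, as well as MVD, SC5D and PMVK (adjusted p 0.0244, 0.0124 and 0.0294). The 13 also count ABCA1, which passed the limit for testing only through RD and was near 0 in Rh30, so that nothing is read from its call. The balance of the genes called in the whole table depended on scaling. On the TPM scale, where all libraries have equal sums, 2061 were called higher and 3015 lower in Rh30, beside 2665 and 2486 as deposited. The 10 genes named here kept their direction on that scale and with each library centred on its median.

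**Figure D3:**
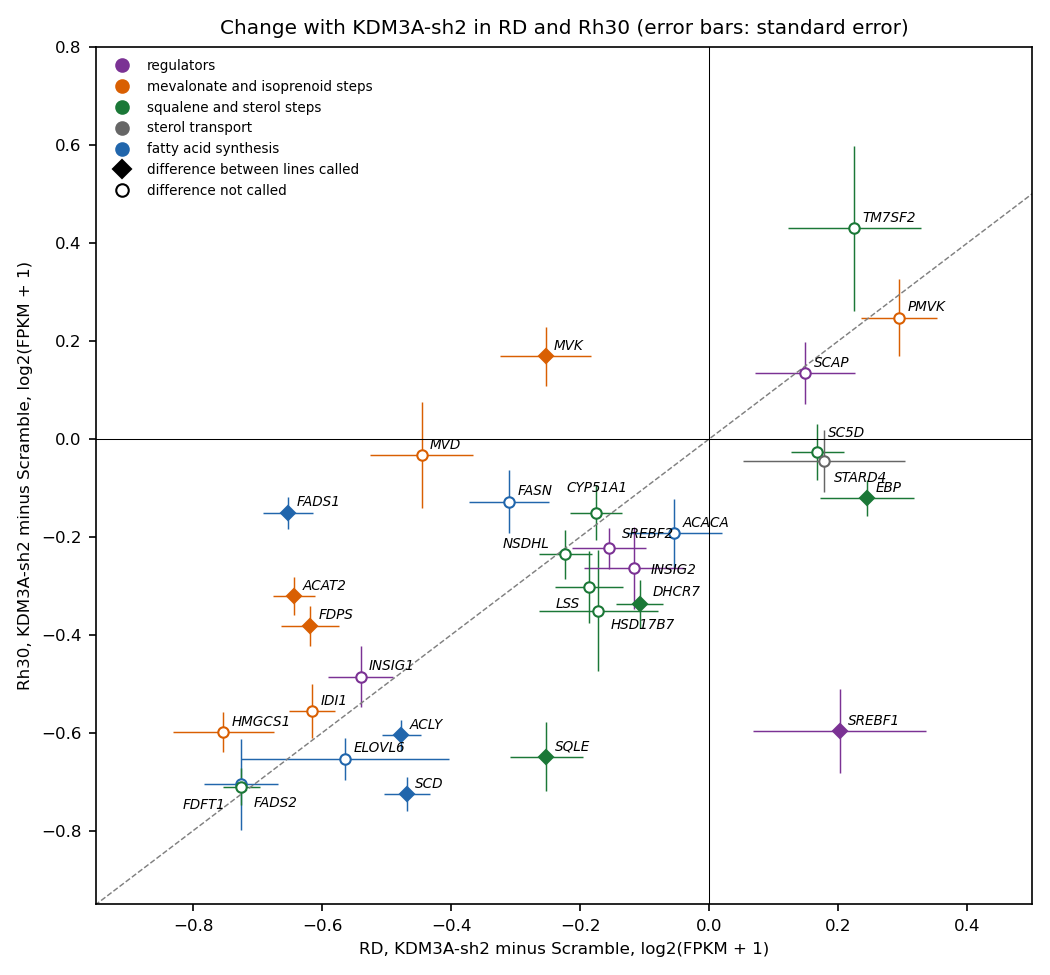
Change with KDM3A-sh2 in RD (x axis) and in Rh30 (y axis), log2(FPKM + 1), for the 30 genes tested in both, with standard errors as bars and the line of equal change dashed. Filled diamonds mark the 10 genes whose change differed between the lines, with SREBF1 farthest below the dashed line and FADS1 farthest above it.

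Promoter sequences are shown for 4 of the genes, picked by hand: SREBF2, a regulator that fell in Rh30, and HMGCS1, FDPS and INSIG1, which fell in both lines. A link between promoter words and the changes was not tested. Windows from 250 bases before to 50 after the start site were given by RefSeq (GRCh38.p14) for 27 of the 31 genes, all but ACAT2, FDFT1, SQLE and FASN. Each window was searched on both strands for 4 words. TCACNCCAC is a form of the sterol regulatory element that SREBPs bind. CCAAT, which reads ATTGG on the opposite strand, is the word of the factor NF-Y, known to act beside SREBPs. An E-box was written as CACGTG. The GC box of the factor SP1 was written as GGGCGG. Capitals below mark every word but the GC box, each shown as it reads on the strand of the gene. By the RefSeq start sites the stretches begin 143, 165, 186 and 180 bases upstream and end before the gene, while GENCODE 29 puts the first exon of HMGCS1, FDPS and INSIG1 inside the stretch shown.
SREBF2, chr22:41832962-41833013, plus strand: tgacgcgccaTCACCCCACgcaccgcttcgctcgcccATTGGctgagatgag
HMGCS1, chr5:43313498-43313577, minus strand: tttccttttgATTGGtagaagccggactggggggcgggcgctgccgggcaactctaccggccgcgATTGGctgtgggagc
FDPS, chr1:155308680-155308829, plus strand: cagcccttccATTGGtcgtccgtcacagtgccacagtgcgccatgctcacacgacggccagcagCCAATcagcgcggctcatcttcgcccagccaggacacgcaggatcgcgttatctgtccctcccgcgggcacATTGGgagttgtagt
INSIG1, chr7:155297698-155297838, plus strand: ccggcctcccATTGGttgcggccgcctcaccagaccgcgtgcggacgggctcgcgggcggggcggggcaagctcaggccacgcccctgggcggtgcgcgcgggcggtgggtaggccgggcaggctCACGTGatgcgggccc

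These stretches hold 1 CCAAT word in SREBF2, 2 in HMGCS1, 3 in FDPS and 1 in INSIG1. CCAAT was found in 19 of the 27 windows, 70.4%, beside 39.7% of all 27305 genes with a window of this length, and in Rh30 and RD alike it was present both in genes that fell, such as SCD and IDI1, and in genes that did not, such as TM7SF2 and STARD4. The GC box was in 26 of the 27 (96.3%, beside 48.3% of all genes) and CACGTG in 5 (ABCA1, INSIG1, LSS, SC5D and SCAP, or 18.5%, beside 8.77%). TCACNCCAC was in 1 of the 27, SREBF2 (3.70%, beside 1.39%). The set of all genes includes genes that are not expressed in these cells, and a match is a match of letters only.

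With Scramble, the lines differed in the level of most of the 31 genes: 17 were lower and 9 higher in Rh30 than in RD, beside 39.6% of all 18357 genes tested that were lower and 35.0% that were higher (74.5% in either direction). The 17 count ABCA1, which passed the limit for testing only through RD, so that its call was fixed by the line where it is high. The median difference was -0.24, beside -0.04 over all genes tested, -0.35 on the TPM scale, which moves the median of all genes by -0.10, and -0.16 with each library centred on its median, which moves it by 0.08. On the TPM scale, 21 of the 31 genes were lower and 9 higher in Rh30, beside 8146 and 5606 of all genes. With centring, 16 were lower and 9 higher, beside 6643 and 7042 of all genes. ABCA1 is among the lower ones in both. The line and its growth medium cannot be told apart here, and this comparison uses the same Scramble libraries as those above. The squalene and sterol steps were lower in Rh30 for 8 of 10 genes (median -0.58), with TM7SF2 at 15.4 ± 1.09 FPKM in RD and 2.03 ± 0.0618 FPKM in Rh30 (SD, n = 3, -2.43 ± 0.08, limma adjusted p 3.12e-07) and SC5D at 64.4 and 30.0 FPKM. EBP was the exception among those called (0.87 ± 0.07, at 92.0 FPKM in Rh30).

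Of the mevalonate enzymes, PMVK (55.9 FPKM in RD and 12.3 FPKM in Rh30, -2.10 ± 0.07) and MVD (61.8 and 25.4 FPKM, -1.26 ± 0.11) were much lower in Rh30, FDPS (-0.75 ± 0.05) and MVK (-0.49 ± 0.06) were lower, HMGCS1 was higher (0.38 ± 0.07), and IDI1 (76.8 and 76.9 FPKM) and ACAT2 (141 and 138 FPKM) were not called. Both SREBP genes were higher in Rh30, SREBF1 by 1.88 ± 0.14 (limma adjusted p 1.45e-05) and SREBF2 by 0.70 ± 0.06 (adjusted p 2.48e-05). The small differences of INSIG2 (-0.33 ± 0.10) and SCAP (-0.24 ± 0.07) were called but were lost without RD Scramble replicate 1 (-0.26, adjusted p 0.0592), Rh30 Scramble replicate 1 (-0.31, adjusted p 0.053) and Rh30 Scramble replicate 2 (-0.26, adjusted p 0.0568) for INSIG2, and without Rh30 Scramble replicate 3 (-0.20, adjusted p 0.0628) for SCAP. INSIG1 (-0.15 ± 0.06, adjusted p 0.0592) was called without Rh30 Scramble replicate 3 (-0.20, adjusted p 0.0146), and HSD17B7 (-0.16 ± 0.09) without Rh30 Scramble replicate 3 (-0.25, adjusted p 0.0188). In all, 4 of the fatty acid enzymes were higher in Rh30, beside 35.0% of all genes tested: SCD (0.75 ± 0.04), ELOVL6 (0.76 ± 0.12), ACACA (0.34 ± 0.04) and FADS1 (0.23 ± 0.04). FADS2 was lower (-1.82 ± 0.09 on the log2 scale). ACLY was lower as well (-0.24 ± 0.03, limma adjusted p 0.000372), and FASN was not called (-0.06 ± 0.07). ABCA1 was at 3.35 FPKM in RD and 0.0137 FPKM in Rh30, and STARD4 was higher there (0.84 ± 0.10).

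**Figure D4:**
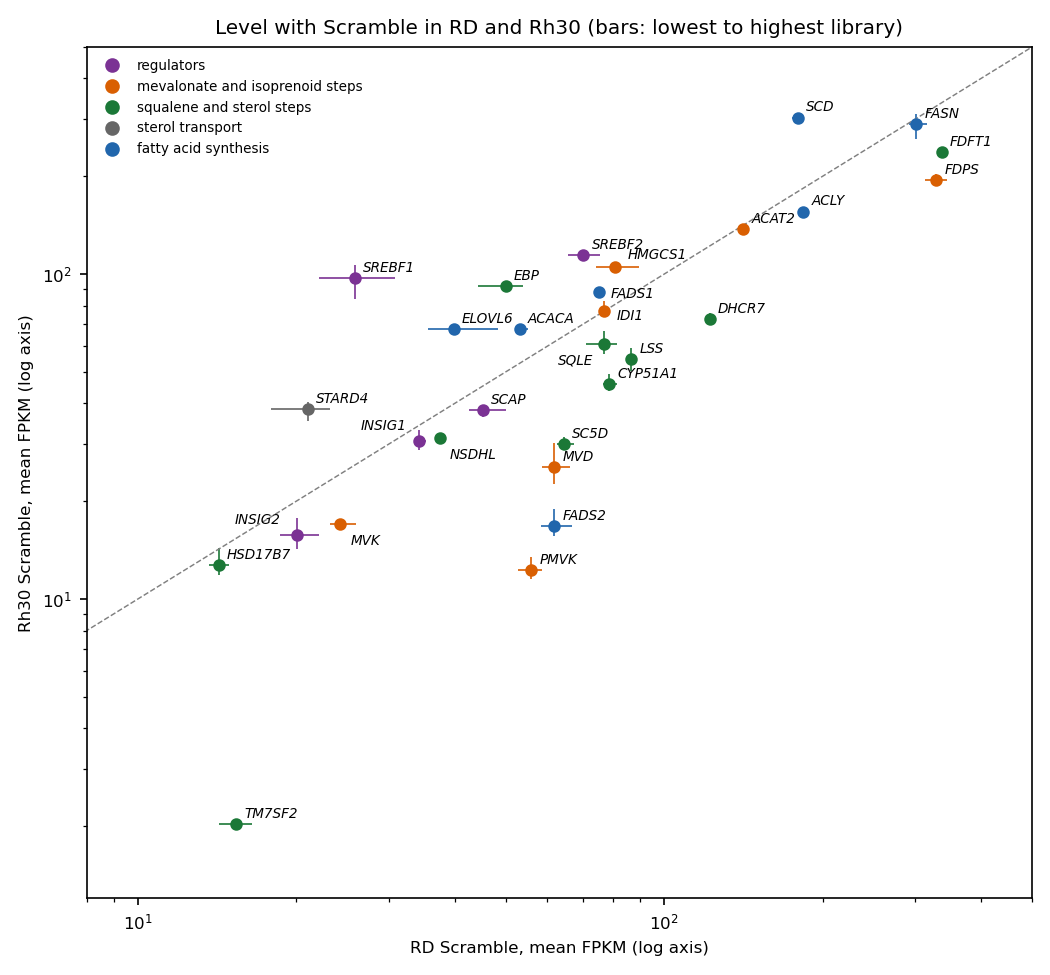
Mean FPKM with Scramble in RD (x axis) and Rh30 (y axis), both on log axes, for 30 genes colored by role, with bars from the lowest to the highest library and the line of equal level dashed. ABCA1 is off the axes, TM7SF2, PMVK, FADS2 and MVD lie far below the dashed line, and SREBF1 and STARD4 lie above it.

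The 48 further genes of these pathways, in lists that hold none of the 31, went both ways in each line. In RD 14 of the 46 tested fell and 12 rose (median -0.02), beside the 19.5% and 21.6% of all genes, and in Rh30 14 of 46 fell and 6 rose (median -0.04), beside 13.2% and 15.3%. Besides TMEM97, NUS1, HSD17B12, ERLIN2, FADS3, NR1H2 and DHDDS, which a rule of size picked, the genes named below are all those called, chosen after their values were seen. Among 5 further sterol enzymes and partners, MSMO1 (-0.25), LBR (-0.29) and TMEM97 (-0.94) fell in RD at a limma adjusted p under 0.05. In Rh30 MSMO1 (-0.51) and LBR (-0.16) fell again, and TMEM97 (0.22) and GGPS1 (0.21) rose. TMEM97, a sterol-responsive protein of the endoplasmic reticulum, was at 45.3 ± 0.814 FPKM in RD Scramble and 23.1 ± 2.29 FPKM in RD KDM3A-sh2, and at 168 ± 2.14 FPKM in Rh30 Scramble and 196 ± 5.21 FPKM in Rh30 KDM3A-sh2 (SD, n = 3). It fell in RD and rose in Rh30, with a difference of 1.17 ± 0.08 (adjusted p 4.25e-06).

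Among 8 genes of SREBP processing and degradation of the sterol sensors, the site-1 protease gene MBTPS1 (-0.19 in RD and -0.17 in Rh30) and ERLIN1 (-0.45 and -0.27) fell in both lines, the site-2 protease gene MBTPS2 fell in Rh30 (-0.31), and RNF139 (0.22), ERLIN2 (0.60), SPRING1 (0.33) and FAF2 (0.26) rose in RD. ERLIN2, the partner of ERLIN1 in the degradation of sterol sensors, went from 38.0 ± 2.10 to 58.0 ± 0.366 FPKM in RD (SD, n = 3, limma adjusted p 0.000177). Of 11 genes of sterol uptake, storage and efflux, LIPA (-0.49 and -0.61) and SOAT1 (-0.58 and -0.43), which free and store cholesterol, fell in both lines, and NR1H2, a receptor for oxysterols (LXR beta), rose in both (0.46, adjusted p 0.000697, in RD and 0.60, adjusted p 0.00113, in Rh30). MYLIP fell in Rh30 (-0.38), and NPC2 (0.45) and OSBP (0.19) rose in RD.

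Of 17 genes of fatty acid supply and elongation, the citrate carrier SLC25A1 (-0.34 and -0.24), the acyl-CoA synthetase ACSL3 (-0.23 and -0.55) and FADS3 (-0.47 and -0.84) fell in both lines. FADS3 was at 103, 106 and 83.5 FPKM in Rh30 Scramble and 55.1, 53.3 and 53.4 FPKM in Rh30 KDM3A-sh2 (limma adjusted p 0.00119). ELOVL5 fell in RD (-0.25) and rose in Rh30 (0.19), with a called difference of 0.44 ± 0.05 (adjusted p 0.000151). HSD17B12, the reductase of fatty acid elongation, rose in RD from 26.4 ± 1.78 to 44.1 ± 1.47 FPKM (SD, n = 3, 0.72, adjusted p 0.000181) and was at -0.08 in Rh30, a called difference of -0.80 ± 0.07. Besides these, MID1IP1 (-0.23) fell and ME1 (0.16) and ELOVL1 (0.21) rose in RD, and ACSL4 (-0.39) fell and SCD5 (0.28) rose in Rh30. In the list of 7 prenylation and dolichol genes, the 2 subunits of the enzyme that makes dolichol precursors went in opposite directions in both lines: NUS1 fell (-0.80, adjusted p 0.000136, in RD and -0.76, adjusted p 0.000808, in Rh30) and DHDDS rose (0.34, adjusted p 0.0105, and 0.38, adjusted p 0.0301). NUS1 was at 16.1, 15.3 and 15.0 FPKM in RD Scramble and 8.44, 8.11 and 8.80 FPKM in RD KDM3A-sh2. Of the remaining 5, PDSS1 fell (-0.46) and PDSS2 rose (0.29) in RD, and FNTA fell in Rh30 (-0.29).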

How the data were processed

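RNA-seq of 12 libraries (3 in each of 4 groups) was analysed from 1 table of FPKM values, which the authors made with GSNAP, SAMtools and Cufflinks on GRCh38 from single-end reads of a directional mRNA preparation, per the labels and the study's methods. The annotation release and the strand setting are not given in the sources used here. The deposited FPKM hold no read counts, and the relative depth came from the spacing of values up to 0.2 FPKM. Of 66095 entries, 120 repeats of 117 identifiers were left out (keeping the highest mean), and 17 genes with a placeholder value were not tested.

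Changes were tested with limma 3.58.1 in R 4.3.3 (lmFit and eBayes with a mean-variance trend, two-sided) on log2(FPKM + 1). Genes whose mean over the fitted libraries was under 1 FPKM were not tested. Each line was fitted on its 6 libraries, the difference between the lines on all 12, and Scramble in Rh30 against RD on 6, with Benjamini-Hochberg adjustment over all genes tested and a threshold of 0.05. An exact permutation test of 3 against 3 libraries cannot go below 0.1 and was not used. The study's methods name an ANOVA, which was run as an alternative beside another pseudocount, other filters and scalings, 1 fit over all libraries, a replicate block, a 1.5-fold requirement and leaving out each library. The code was tested on simulated data. Exon overlaps and positions are from GENCODE 29, which holds 86.3% of the identifiers. The members, the other lists and the tests were chosen with earlier results of these data known. Values in every library are given for KDM3A, SREBF1, SREBF2, INSIG1, INSIG2 and the members called with a log2 change of at least 0.58 in a line or between lines, and from the other lists the 2 largest called rises and drops per line with a mean of at least 10 FPKM were named by rule. Of the other lists, 1 gene is not reported here and is in none of their counts.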

Additional observations from a re-analysis of the deposited data

Results flagged for a closer look

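For 10 of the 31 genes the change with KDM3A-sh2 differed between the lines by the test of the difference itself (limma adjusted p under 0.05 over 12 libraries, 27.8% of all genes tested). The line, its growth medium and the smaller drop of KDM3A in Rh30 cannot be told apart in these differences. Written as the change in Rh30 minus that in RD on the log2(FPKM + 1) scale, the regulator SREBF1 was at -0.80. Among the sterol enzymes, MVK was at 0.42, ACAT2 at 0.32, FDPS at 0.24, SQLE at -0.40, EBP at -0.36 and DHCR7 at -0.23. Among the fatty acid enzymes, FADS1 was at 0.50, SCD at -0.26 and ACLY at -0.13. ACAT2, FDPS, SQLE, ACLY, SCD and FADS1 fell in both lines and differed in size, SREBF1 and DHCR7 fell in Rh30 and were not called in RD, MVK fell in RD and was not called in Rh30, and EBP rose in RD and was not called in Rh30. Without RD KDM3A-sh2 replicate 2 or RD Scramble replicate 3 the difference for ACLY was not called (adjusted p 0.0524 and 0.0517). Limma without the mean-variance trend did not call it either (adjusted p 0.0764).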

How the results depend on the processing

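The tests called 22 of the 31 genes in RD, 17 in Rh30, 10 for the difference between the lines and 26 between the Scramble groups, and of all genes 7390, 5066, 5151 and 13683. With a 1.5-fold change required as well, 7 of the 31 genes were called in RD (1772 of all genes), 8 in Rh30 (1120), 1 (SREBF1) for the difference between the lines (1783) and 16 between the Scramble groups (8764). Leaving out each library gave 19 to 20 called genes in RD, 15 to 18 in Rh30, 9 to 11 for the difference and 25 to 27 between the Scramble groups, against 5984 to 6358, 3215 to 4071, 4399 to 4757 and 12913 to 13239 of all genes. The medians over the 31 genes then ran from -0.23 to -0.20 in RD, from -0.31 to -0.26 in Rh30, from -0.07 to -0.00 for the difference and from -0.26 to -0.24 between the Scramble groups, the last being -0.35 on the TPM scale and -0.16 with each library centred on its median. No called value of the 31 genes changed sign under any alternative run. Of those not called, the difference between the lines changed sign on the TPM scale for FADS2 (-0.0337), CYP51A1 (-0.0335), FDFT1 (-0.0433) and INSIG1 (-0.0009), with libraries centred on their median for FADS2 (-0.0078), CYP51A1 (-0.0031) and FDFT1 (-0.0121), with a pseudocount of 0.1 for FADS2 (-0.0155) and ABCA1 (0.38), and as a difference of FPKM for HMGCS1 (-2.77), NSDHL (0.634) and TM7SF2 (-1.72). Between the Scramble groups, centring turned IDI1 (0.0746), ACAT2 (0.0422) and FASN (0.0130), and IDI1 was at 0.0380 as a difference of FPKM. Leaving out 1 library turned ACACA in RD (-0.11 to 0.0274), SC5D (-0.0618 to 0.0078) and MVD (-0.11 to 0.0919) in Rh30, the difference between the lines for SCAP (-0.0866 to 0.0390), ELOVL6 (-0.23 to 0.0387), CYP51A1 (-0.0082 to 0.0796), FADS2 (-0.0346 to 0.11), NSDHL (-0.0396 to 0.0126), FDFT1 (-0.0003 to 0.0469) and PMVK (-0.0913 to 0.0179), and between the Scramble groups IDI1 (-0.0516 to 0.0291) and FASN (-0.12 to 0.0107). Knockdown changes that were not called and kept their sign, but moved by over 1.5 times, were those of SREBF1, INSIG2, SCAP, STARD4, TM7SF2 and HSD17B7 (-0.27 to -0.11) in RD and of SCAP, STARD4, FASN (-0.20 to -0.0753) and CYP51A1 (-0.18 to -0.0962) in Rh30. The difference between the lines moved as much, without a call, for ACACA (-0.22 to -0.0775), FASN (0.11 to 0.24), HMGCS1 (0.0787 to 0.21), HSD17B7 (-0.26 to -0.0666), IDI1 (0.0296 to 0.11), INSIG1 (0.0102 to 0.11), INSIG2 (-0.22 to -0.0661), LSS (-0.17 to -0.0580), SREBF2 (-0.12 to -0.0218), STARD4 (-0.31 to -0.12) and TM7SF2 (0.0630 to 0.37). Between the Scramble groups ACAT2 (-0.0528 to -0.0188) and HSD17B7 (-0.25 to -0.11) did. The cause was not tested.

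The sample titles number the libraries of each group alike (the descriptions of Rh30 Scramble do not), but same-numbered libraries did not deviate together (correlations of -0.074, -0.009 and -0.063 in RD and -0.026, -0.055 and -0.045 in Rh30), and in these comparisons no library correlated best with its own number. Between the Scramble groups the correlations were 0.056, -0.000 and -0.045. With the replicate block, 20 of the genes were called in RD, 16 in Rh30, 11 for the difference and 26 between the Scramble groups (6259, 3421, 4780 and 13544 of all genes). FPKM without read counts limit what can be said of precision, most of all for ABCA1 in Rh30 and TM7SF2 in Rh30, the lowest levels of the set.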

Other observations

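The 7-letter word TGAAGCA, which had been tallied in 3′ UTRs in an earlier look at these data, was counted in the 3′ UTRs of GENCODE 29 of at least 50 bases. It was present in those of INSIG2, FDFT1, NSDHL, ELOVL6 and ABCA1, 5 of the 31 genes or 16.1%, beside 16.8% of the 12598 genes tested that have such a UTR. FDFT1, NSDHL and ELOVL6 fell in both lines, INSIG2 was called in neither, and ABCA1 rose in RD.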
